A study of Mus musculus with 36 samples.

Results

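Gene expression in the amygdala of mice given diazepam (DZP) was set against that of mice given the vehicle, Intralipid (Ctrl). The arrays were chosen by their labelled region and agent, which gave 6 of the 18 gene-level arrays of the series, 3 from DZP and 3 from Ctrl amygdala. Results are described for the 30646 of 65956 non-control transcript clusters that carry a single gene symbol. A transcript cluster is the set of probes that the Affymetrix Mouse Transcriptome Array 1.0 assigns to 1 transcribed locus, and every value is a log2 signal intensity. The DZP mice received 5 mg/ml DZP by intraperitoneal injection in the morning and in the evening for 10 days, and the Ctrl mice received Intralipid on the same schedule. All were male C57BL/6 mice, 8 weeks old at the start of injections. Both groups shared the handling and the lipid carrier, so that no untreated, uninjected mouse is among them. The paper states that the mice of either treatment were anesthetized before the brain was removed, with a mixture that contained midazolam. Cortex and hippocampus were measured in the same way, with 3 arrays per agent and region.

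Diazepam is a benzodiazepine. It binds between the alpha and gamma subunits of the GABA-A receptor, the chloride channel that carries most fast inhibition in the brain, and makes the channel respond more strongly to GABA. The amygdala joins a cortex-like basolateral part, whose principal cells are glutamatergic, to central and medial nuclei of GABAergic cells, and it is known for its role in fear and anxiety, which diazepam relieves. It lies directly below the striatum, whose projection neurons express dopamine receptors and the signalling proteins that act beneath them.

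The labels name the region but not which arrays came from the same mouse, and the p-values below measure only the spread between arrays. In limma that spread is pooled over the arrays of all regions, except in the fits of the 6 amygdala arrays alone. The median signal of the amygdala arrays was 5.97 to 6.03 in DZP and 5.90 to 6.00 in Ctrl. Pearson's r over clusters was at least 0.9949 within DZP, at least 0.9932 within Ctrl, and 0.9938 to 0.9956 between them. Markers of the basolateral and cortical nuclei averaged 8.63 to 9.10 in the 6 amygdala arrays, above the 7.30 to 7.52 of the cortex and the 8.04 to 8.43 of the hippocampus, and markers of the central and medial nuclei averaged 7.02 ± 0.02 in DZP and 7.24 ± 0.19 in Ctrl (SD, n = 3 each), above the range of 5.94 to 6.07 in cortex and 6.24 to 6.34 in hippocampus. Both lists were therefore highest in the region of the label. Ctrl array 3 stood apart from the other 5 amygdala arrays in choroid plexus and ependyma markers, which averaged 8.47 there and 6.21 to 6.33 elsewhere. Ttr, the transthyretin of the choroid plexus, had 7.42, 7.55 and 8.16 in DZP, against 7.41, 8.19 and 16.43 in Ctrl. Kl, another choroid plexus gene, had 5.55, 5.70 and 5.71 in DZP and 5.96, 6.07 and 9.32 in Ctrl. Without Ctrl array 3 the differences of Ttr and Kl were -0.09 and -0.36, and the median of the list was 0.04. Because this array also had the lowest means of the striatal and the oligodendrocyte markers, values without it are added for many of the named genes and lists that it moved. A value given alone may also have moved without it.

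No gene passed the test across all clusters. The smallest adjusted p of limma's moderated test was 0.078 (Benjamini-Hochberg over 65956 clusters), and 0 clusters, or 0%, were called at 0.05, in either direction. At an unadjusted p below 0.05, limma picked 2823 single-symbol clusters, or 9.21%, of which 1827 (5.96%) had the higher mean in DZP and 996 (3.25%) the lower. The methods' test of the 2 groups, after the same adjustment, also called 0, with 4229 of all clusters below 0.05 before it. A limma fit of the 6 amygdala arrays alone called 0 as well. Simulated data of the same size drew independent noise, with each cluster's spread pooled over the 3 regions. There limma called 64% of clusters changed 1.5-fold and 94% of those changed by 1 on the log2 scale. Because variation that clusters share within amygdala was left out, these shares do not show how many real changes would be called. In what follows, higher and lower therefore describe group means and the arrays themselves.

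The sign of the difference went with the signal level. Among single-symbol clusters with a mean signal of 5 or less, the median difference (DZP minus Ctrl, log2) was 0.08, and 13.6% had all DZP arrays above all Ctrl arrays, against 1.06% below. Between 10 and 12 the median was -0.05, and 1.99% lay above against 14.6% below. Over all single-symbol clusters, 8.35% had every DZP array above every Ctrl array and 5.62% every DZP array below. Among the 9610 coding genes whose mean exceeded that of the negative control probes the shares were 2.59% and 12.8%, the background of the counts for expressed genes below. This background moved with the scaling: 249 of them lay above and 1231 below as deposited, 55 and 1324 after centring, 513 and 841 after quantile normalization and 429 and 944 after cyclic loess. Centring each array on its own median turned the share of single-symbol clusters with a higher mean in DZP from a majority of 57.3% to 43.1%, quantile normalization gave 50.9% and cyclic loess 48.5%. The median difference over all clusters was 0.03 as deposited and -0.02 after centring.

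**Figure D1:**
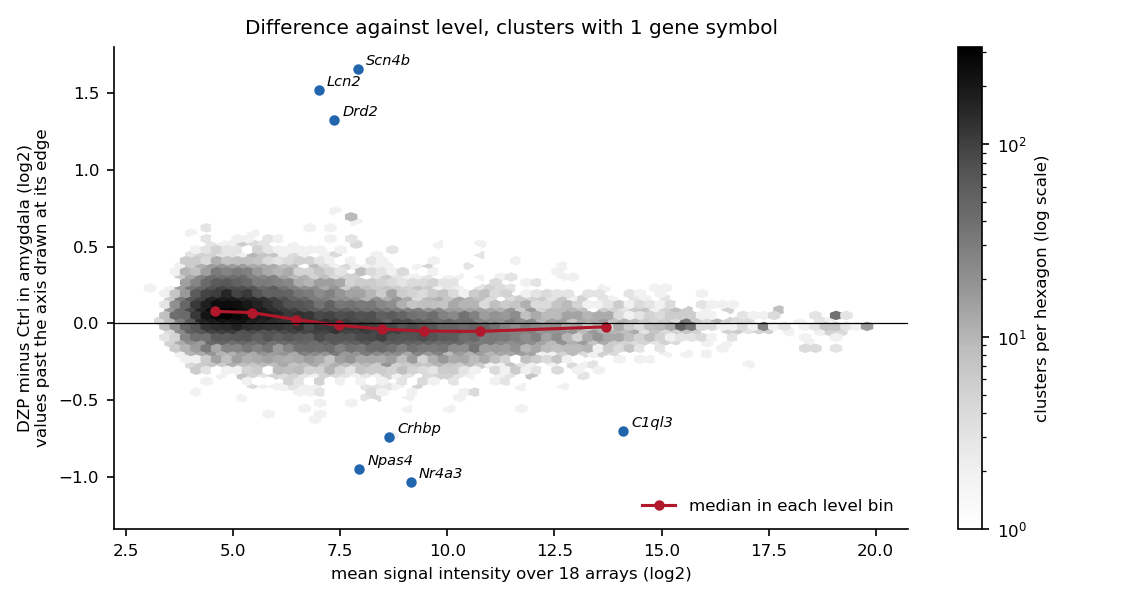
Difference between DZP and Ctrl amygdala (y axis, log2) against the mean signal over 18 arrays (x axis, log2) for the single-symbol clusters, shaded by how many fall in each hexagon, with the median of each level bin in red and 7 named genes in blue. The median runs from 0.08 at the lowest levels to -0.05 between 10 and 12, and the named genes lie far outside the band, from Scn4b at 1.66 to Nr4a3 at -1.04.

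Genes of striatal projection neurons had the highest median difference of the lists of markers. Of 24 listed genes, 22 had a single-symbol cluster; 20 of these had the higher mean in DZP, 15 at an unadjusted p below 0.05, with a median difference of 0.60. Among the coding genes above the negative controls 32.7% had the higher mean, and 1.81% did so at that p. The DZP arrays lay entirely above the Ctrl arrays for 3 of them (13.6%, against 2.59% of the coding genes above the negative controls, here called expressed). Scn4b, the beta4 subunit of the voltage-gated sodium channel, had 9.32, 9.62 and 7.97 in DZP, against 7.24, 8.24 and 6.45 in Ctrl. DZP arrays 1 and 2 were the highest and Ctrl array 3 the lowest, while DZP array 3 fell below Ctrl array 2. The difference was 1.66 (SE 0.38, limma adjusted p = 0.292, or 0.678 in a fit of the 6 amygdala arrays alone). Drd2, the dopamine receptor of indirect-pathway neurons, had 11.67, 12.10 and 10.18 in DZP and 10.45, 10.70 and 8.82 in Ctrl, a difference of 1.32 (limma adjusted p = 0.385). Rgs9, a regulator of G protein signalling at dopamine receptors, had 11.19, 11.59 and 9.82 in DZP and 9.49, 10.41 and 8.92 in Ctrl, a difference of 1.26 (limma adjusted p = 0.332). In all 3 genes DZP arrays 1 and 2 lay above every Ctrl array, Ctrl array 3 was the lowest and DZP array 3 lay within the range of Ctrl. The difference of Drd2 was 0.74 without Ctrl array 3.

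Drd1 and Gpr6 were 2 of the 3 whose groups did not overlap. Drd1, the dopamine receptor of direct-pathway neurons, had 9.70, 9.65 and 9.55 in DZP, against 8.76, 9.17 and 8.17 in Ctrl. The DZP arrays lay close together and all above Ctrl, with a difference of 0.93 (SE 0.18, limma adjusted p = 0.165). Gpr6, an orphan receptor of indirect-pathway neurons, had 8.53, 8.68 and 7.96 in DZP and 7.45, 7.90 and 7.34 in Ctrl, a difference of 0.82 (SE 0.16, limma adjusted p = 0.176). Six3, a transcription factor of the striatal lineage, was the third, with a difference of 0.23. Ppp1r1b, which encodes the dopamine signalling protein DARPP-32, differed by 0.82 and Syndig1l by 0.61 with overlapping arrays. The peptide genes of the same neurons differed less, with 0.38 for Tac1, 0.20 for Penk and 0.19 for Pdyn, and without Ctrl array 3 they were at 0.12, -0.04 and -0.16. The 2 lower members were Rxrg at -0.07 and Ptpn5 at -0.02, and without that array they were at -0.29 and -0.14.

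Taken array by array, the mean over the 22 striatal markers was 10.03, 10.23 and 9.33 in DZP amygdala, against 9.30, 9.66 and 8.82 in Ctrl amygdala. The groups averaged 9.86 ± 0.47 and 9.26 ± 0.42 (SD, n = 3 each), so that the difference of 0.61 was of the size of the spread between arrays of 1 group (exact two-sided permutation test, p = 0.2, where 0.1 is the smallest that 3 against 3 arrays allow). In the cortex the same mean was 7.80 to 7.91 in DZP and 7.86 to 7.93 in Ctrl, and in the hippocampus 7.69 to 7.75 in DZP and 7.73 to 7.74 in Ctrl. The amygdala arrays therefore held more striatal marker signal than either other region, and varied far more. Because limma pools the spread over all regions, its p-values for these markers rest in part on the smaller spread of cortex and hippocampus. How much striatum each dissected sample contained and how much marker RNA each cell held cannot be told apart in bulk tissue. With this mean as a covariate in a fit of the 6 amygdala arrays the median of the list became 0.01, Drd2 -0.02, Rgs9 0.13 and Scn4b 0.47, while Drd1 kept 0.56 and Gpr6 0.38 (limma adjusted p = 0.926 for the last 2). The mean is made of these genes themselves, and with 3 residual degrees of freedom no cluster was called in that fit.

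**Figure D2:**
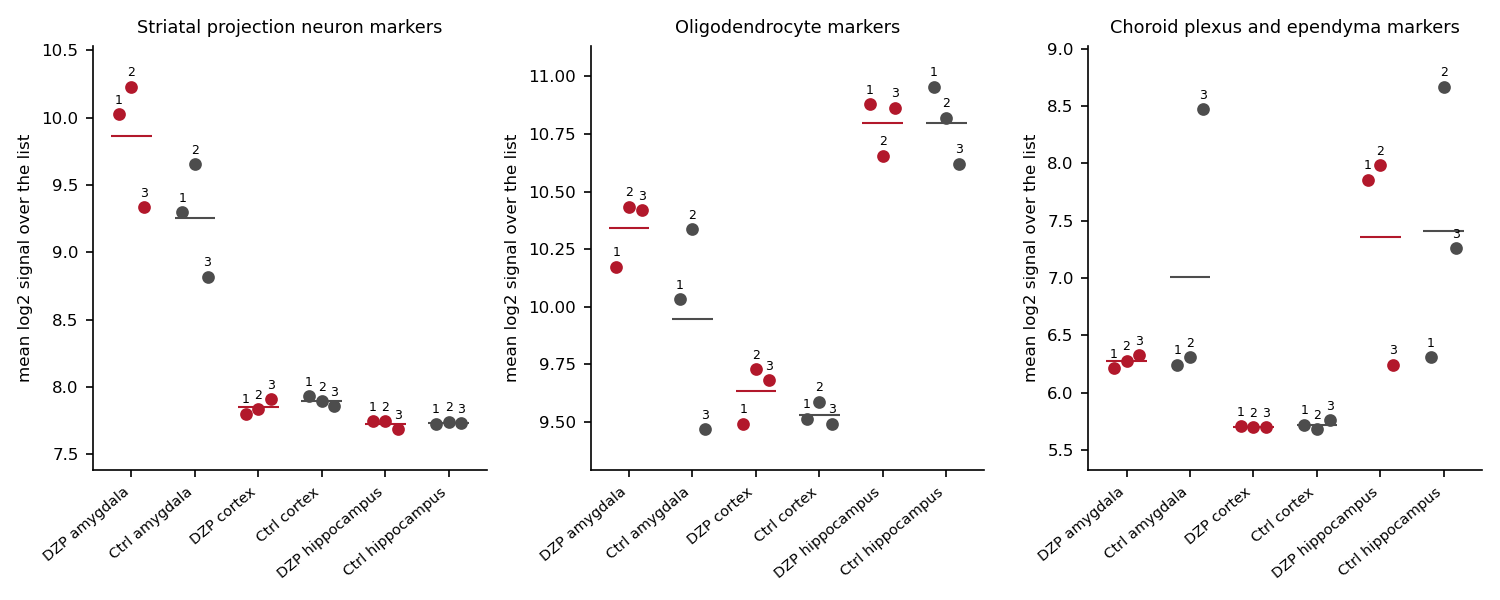
Mean log2 signal (y axis) over the markers of striatal projection neurons, oligodendrocytes, and choroid plexus and ependyma on each of the 18 arrays, by agent and region; numbers are the replicate numbers of the labels and bars the group means. Striatal marker means reach 10.23 in DZP amygdala and 9.66 in Ctrl amygdala but stay below 8 in cortex and hippocampus, and Ctrl amygdala 3 is high in choroid plexus markers (8.47), as are several hippocampal arrays.

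Oligodendrocyte genes also had higher means in DZP. All 10 measured markers did so, 5 at an unadjusted p below 0.05, with a median difference of 0.43, yet the groups overlapped for every one of them. Mobp, a structural protein of compact myelin, had 12.28, 13.03 and 13.03 in DZP, against 12.33, 12.55 and 11.45 in Ctrl. Ctrl array 3 was the lowest and the other 5 arrays mixed, with a difference of 0.67 (limma adjusted p = 0.443). Mal differed by 0.57, Mag by 0.53, Mbp by 0.41 and Mog by 0.39, all genes of the myelin sheath. Without Ctrl array 3 the list's median was 0.19, with 7 members higher and 3 lower, and Mobp was at 0.34, Mal at 0.28, Mag at 0.27, Mbp at 0.22 and Mog at 0.17. The 6 markers of the intercalated cells, small GABAergic clusters between the amygdala nuclei, all had higher means (median 0.14), but without Ctrl array 3 the median was -0.05.

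By the criteria of the study's methods, a fold change of at least 1.5 with an unadjusted P below 0.05, 36 single-symbol clusters (0.117%) were higher and 13 (0.0424%) lower in DZP. Counting each gene once, these were 10 coding genes higher (0.0538%) and 9 lower (0.0484%), 15 noncoding genes higher (0.528%) and 3 lower (0.106%), 9 predicted genes higher and 1 lower, and 1 pseudogene higher. The DZP and Ctrl arrays of all 19 coding genes lay apart. Of the 10 higher ones, Lcn2 (through DZP alone), Drd1, Gpr6 and Gsg1l had a mean above the negative controls, and the others (Ctla2b and the olfactory receptor genes Olfr65, Olfr871, Olfr980, Olfr1277 and Olfr1314) did not. Of the 9 lower ones (Nr4a3, Fndc9, Npas4, Fabp7, Crhbp, C1ql3, Ucn3, Kcng1 and Iqgap2), all but Ucn3 lay above them. With the striatal marker mean as a covariate in place of none, 58 clusters were higher by these criteria, and without DZP array 3 there were 64. Centring each array gave 11 higher and 20 lower, and there were 16 higher without Ctrl array 1, 71 lower without Ctrl array 2 and 28 lower without Ctrl array 3.

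**Figure D3:**
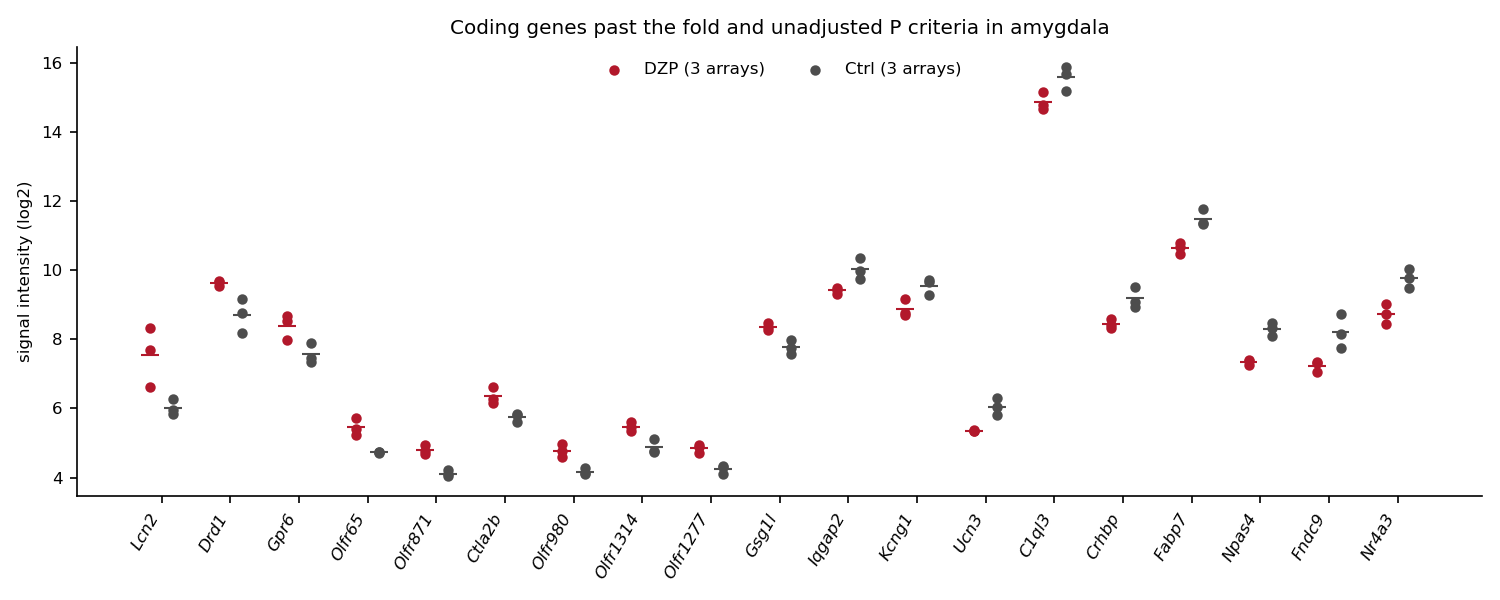
Log2 signal intensity (y axis) on each of the 3 DZP and 3 Ctrl amygdala arrays for the 19 coding genes past the fold and unadjusted P criteria, ordered by the difference; bars are group means. The groups lie apart for every gene, the difference runs from 1.52 for Lcn2 to -1.04 for Nr4a3, and the 5 olfactory receptor genes have signals below 6.

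Genes that neurons switch on when they fire had lower means in DZP amygdala. Immediate early genes such as the Fos, Egr and Nr4a families encode transcription factors transcribed within minutes of calcium entry, and they in turn control slower effectors such as secreted peptides and their processing enzymes. Of 34 listed genes 33 were measured, and 31 of them (against 67.3% of expressed coding genes) had the lower mean in DZP (median difference -0.26, against 0.03 over all clusters and -0.04 over expressed coding genes). For 12 of them (36.4%, against 12.8% of expressed coding genes) every DZP array lay below every Ctrl array, and 8 had an unadjusted p below 0.05 (7.17% of expressed coding genes were lower at that p). The list's mean on each array was 8.06, 8.08 and 8.24 in DZP and 8.30, 8.43 and 8.59 in Ctrl. Egr4 and Gadd45b, at 0.07 each, were the 2 with the higher mean in DZP.

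Nr4a3, an orphan nuclear receptor, stood first, with 8.72, 8.44 and 9.02 in DZP, against 9.78, 9.48 and 10.03 in Ctrl. Every DZP array lay below every Ctrl array, and the difference of -1.04 (SE 0.16, limma adjusted p = 0.078) was the only one of a coding gene above the negative controls to come this near the threshold. In a fit of the 6 amygdala arrays alone its limma adjusted p was 0.678. Npas4, a factor induced in neurons by calcium alone and known to adjust inhibitory synapses, had 7.25, 7.40 and 7.38 in DZP and 8.08, 8.32 and 8.48 in Ctrl. The difference was -0.95 (SE 0.20, limma adjusted p = 0.26), and each group's arrays lay close together. Fos had 6.47, 6.50 and 6.69 in DZP and 6.75, 7.26 and 7.45 in Ctrl, a difference of -0.60 (limma adjusted p = 0.43). Fosb (-0.50) and Fosl2 (-0.46), of the same family, did not overlap either, whereas Jun, which pairs with Fos proteins in the AP-1 dimer, had 7.95, 7.95 and 8.39 in DZP and 7.98, 8.33 and 8.52 in Ctrl, with overlap. Egr1, a zinc finger factor, had 8.97, 9.15 and 9.42 in DZP and 9.67, 9.90 and 9.68 in Ctrl, a difference of -0.57 (limma adjusted p = 0.362).

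Among the effectors, Pcsk1, a convertase that cuts prohormones, had 8.68, 8.41 and 8.65 in DZP, against 9.04, 9.10 and 9.09 in Ctrl, a difference of -0.50 (limma adjusted p = 0.421). Its 3 Ctrl arrays were nearly equal and all above DZP. Dusp6 (-0.43), a phosphatase of ERK, Egr3 (-0.28), Nptx2 (-0.22), a pentraxin that gathers AMPA receptors, Rheb (-0.12) and Bdnf (-0.10), a neurotrophin, also had arrays that did not overlap. Vgf, a neuropeptide precursor, had 8.38, 7.99 and 8.16 in DZP and 8.75, 8.67 and 8.36 in Ctrl, with DZP array 1 just above Ctrl array 3. Arc, which acts at the postsynaptic density, overlapped, with 8.46, 8.89 and 9.25 in DZP and 8.71, 9.34 and 9.89 in Ctrl (difference -0.45). Without Ctrl array 3 Arc was at -0.16 and Jun at -0.06, Egr4 and Gadd45b were at 0.13 and 0.19, the median of the list was -0.16 and 14 members lay entirely below Ctrl (42.4%, against 26.1% of expressed coding genes) and 1 above, and with the striatal mean as a covariate the median was -0.12. Nr4a3 was then at -0.66 and Npas4 at -0.88, and Nr4a3 without DZP array 3 was called, at -1.19 (limma adjusted p = 0.0355).

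**Figure D4:**
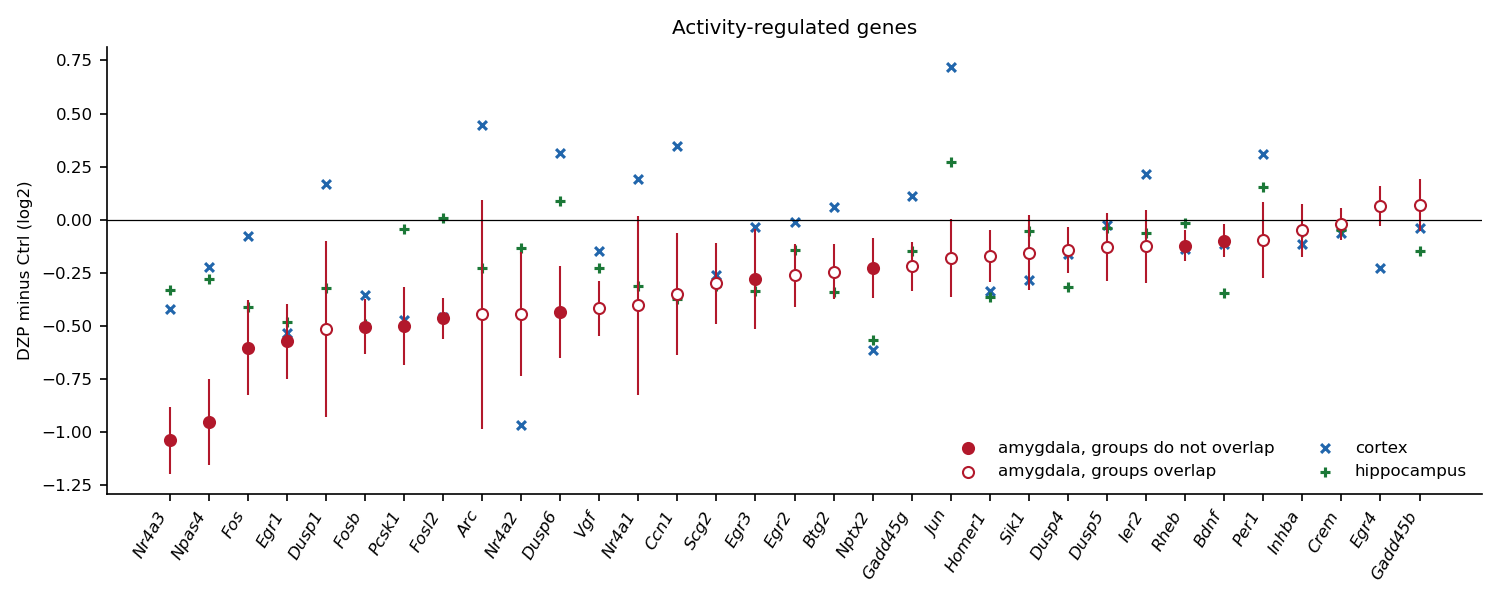
Difference between DZP and Ctrl (y axis, log2) for 33 activity-regulated genes; circles are amygdala with bars of 1 SE from limma, filled where the 3 DZP and 3 Ctrl arrays do not overlap, and crosses and plus signs are cortex and hippocampus. Nr4a3 (-1.04) and Npas4 (-0.95) lie lowest in amygdala, 31 of 33 circles are below 0, and cortex values spread to both sides.

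The promoters of many of these genes carry the cAMP response element, which binds the factor CREB. Its palindrome is TGACGTCA and its half-site TGACG, which was searched on both strands in the 250 bases before each RefSeq start (GRCm38.p6); a palindrome counts as a pair of overlapping half-sites. Of all 32851 promoters, 17.8% held a half-site and 1.55% the palindrome. Of the 36 promoters of the 24 activity-regulated genes that the table holds, 21 (58.3%) had a half-site and 4 (11.1%) the palindrome. Counted by gene, 18 of the 24 (75%) had a half-site in at least 1 promoter, against 19.8% of all genes, and so had 7 of the 9 matched genes whose arrays did not overlap (77.8%). Of the 15 promoters of those 9 genes, 7 (46.7%) had a half-site and 1 (6.67%) the palindrome, smaller shares than in the whole list. The promoters of Nr4a3 (chr4:48045055-48045304, plus strand, 4 half-sites), Npas4 (chr19:4989972-4990221, minus strand, 2 half-sites) and Pcsk1 (chr13:75089607-75089856, plus strand, 3 half-sites that include 1 palindrome) are shown because these genes had the 2 lowest differences of the list and the only palindrome among those that did not overlap, with the motif on either strand in capitals.
Nr4a3: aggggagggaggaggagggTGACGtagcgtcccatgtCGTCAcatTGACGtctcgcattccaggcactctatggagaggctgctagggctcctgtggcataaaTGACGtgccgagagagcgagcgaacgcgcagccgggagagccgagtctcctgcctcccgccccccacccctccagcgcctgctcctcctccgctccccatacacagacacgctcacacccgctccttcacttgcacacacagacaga
Npas4: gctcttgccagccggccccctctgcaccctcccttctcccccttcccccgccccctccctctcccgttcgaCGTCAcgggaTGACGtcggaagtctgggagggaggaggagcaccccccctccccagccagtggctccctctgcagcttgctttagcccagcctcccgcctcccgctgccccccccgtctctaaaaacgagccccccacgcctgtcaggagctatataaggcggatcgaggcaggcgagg
Pcsk1: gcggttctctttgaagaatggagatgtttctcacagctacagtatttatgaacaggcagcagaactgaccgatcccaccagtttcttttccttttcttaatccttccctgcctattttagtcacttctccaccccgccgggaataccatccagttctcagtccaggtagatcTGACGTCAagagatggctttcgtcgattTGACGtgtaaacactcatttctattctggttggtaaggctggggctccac

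Several peptide and interneuron genes had lower means as well. Of 30 listed genes 22 were lower in DZP (median -0.17), where 67.3% of expressed coding genes were lower too. At an unadjusted p below 0.05 in limma 9 were lower (7.17% of expressed coding genes were). For 7 (23.3%, against 12.8% of expressed coding genes) the arrays did not overlap. Crhbp, which binds and buffers corticotropin-releasing hormone, had 8.58, 8.31 and 8.42 in DZP, against 9.09, 8.95 and 9.51 in Ctrl. All DZP arrays were lower, by 0.74 on average (SE 0.12, limma adjusted p = 0.114), and the difference was -0.60 in cortex and -0.92 in hippocampus. Npy, the peptide of many somatostatin cells, had 12.16, 11.76 and 11.97 in DZP and 12.36, 12.28 and 12.22 in Ctrl. Its difference of -0.32 was smaller than the -0.90 of cortex and the -1.36 of hippocampus. Sst itself, at 16.14, 16.04 and 16.55 in DZP and 16.90, 16.84 and 16.50 in Ctrl, overlapped through DZP array 3 and Ctrl array 3 (difference -0.50). Vip (-0.35, or -0.22 without Ctrl array 3), Cck (-0.32), Calb1 (-0.29) and Cort (-0.25) did not overlap, nor did Crh, at -0.18, the hormone that Crhbp binds. Pvalb, the marker of fast-spiking cells, was at 0.11 (0.20 without Ctrl array 3), and Reln at 0.40 with overlapping arrays.

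Ucn3, a ligand of the second corticotropin-releasing hormone receptor that is made in the medial amygdala, had 5.34, 5.35 and 5.37 in DZP, against 6.31, 6.03 and 5.81 in Ctrl. The DZP arrays were nearly equal, at a signal below the negative controls, and the difference was -0.70 (SE 0.12, limma adjusted p = 0.114). It was one of 12 lower among 13 markers of the central and medial nuclei (median -0.18), where 67.3% of expressed coding genes were lower too. Of the 13, 8 exceeded the negative controls. Entirely below Ctrl lay 2 (15.4%, near the 12.8% of expressed coding genes), and 1 lay entirely above. Tac2, a tachykinin of the central nucleus, had 10.39, 9.43 and 9.38 in DZP and 10.55, 10.52 and 9.57 in Ctrl, a difference of -0.48 with overlapping arrays, or -0.80 without Ctrl array 3. Of the 8 markers of the basolateral and cortical nuclei 7 were lower (median -0.33). Dcn, a proteoglycan that fibroblasts also make, had 8.58, 8.07 and 8.71 in DZP and 9.04, 8.81 and 9.75 in Ctrl (difference -0.75, or -0.47 without Ctrl array 3). It was the only one of the 8 without overlap (12.5%, near the 12.8% of expressed coding genes). Lypd1 (-0.50), Cyp26b1 (-0.47) and Sema5a (-0.41) overlapped. These lists were lower where the striatal list was higher, and the part of dissection in either was not tested beyond the covariate fit, in which Dcn was at -0.24 and Lypd1 at -0.15, but Ucn3 was at -0.77, Tac2 at -0.94 and Cyp26b1 at -0.66. The list medians were then -0.19 for the basolateral and cortical and -0.33 for the central and medial nuclei.

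Further expressed genes with a lower mean were named by the criteria or by the size of their moderated t. C1ql3, a secreted protein that joins excitatory synapses through the receptor Adgrb3, had 15.16, 14.66 and 14.77 in DZP, against 15.86, 15.18 and 15.66 in Ctrl. Its arrays lay apart by a narrow margin, with a difference of -0.70 (SE 0.15, limma adjusted p = 0.26), and Adgrb3 was at -0.08. Of the 12 measured C1q-like, cerebellin and pentraxin genes 10 were lower (median -0.08), where 67.3% of expressed coding genes were lower too. Among the 12, 8 exceeded the negative controls. C1ql3 and Nptx2 alone did not overlap (16.7%, near the 12.8% of expressed coding genes). Kcng1, a silent subunit that modifies Kv2 potassium channels, had 8.77, 8.71 and 9.17 in DZP and 9.73, 9.26 and 9.66 in Ctrl, a difference of -0.67 (limma adjusted p = 0.264). The 30 measured voltage-gated potassium channel genes were evenly divided, 15 higher and 15 lower, with a median of 0.01.

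Syn1, the synapsin that tethers synaptic vesicles, had 14.15, 14.24 and 14.30 in DZP, against 14.58, 14.53 and 14.52 in Ctrl. The difference of -0.32 was small, but both groups were tight (SE 0.06, limma adjusted p = 0.165). Rimbp2, a protein of the presynaptic active zone, differed by -0.48 (limma adjusted p = 0.165), Trpc4, a cation channel of lateral septal and amygdala neurons, by -0.54 and Sccpdh by -0.50 (limma adjusted p = 0.114 for both), Fam149a by -0.42 (limma adjusted p = 0.134), the orphan receptor gene Gpr22 by -0.54 and the activity-linked protocadherin gene Pcdh8 by -0.49. Iqgap2, a scaffold of the actin cytoskeleton, had 9.43, 9.32 and 9.50 in DZP and 9.98, 9.73 and 10.33 in Ctrl, a difference of -0.60. Fndc9, a membrane protein gene, had 7.31, 7.35 and 7.06 in DZP and 8.72, 8.16 and 7.74 in Ctrl, a difference of -0.97.

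Among the higher genes with signal above the negative controls, Dach1, a transcription factor, had 8.40, 8.56 and 8.38 in DZP, against 7.76, 8.03 and 7.88 in Ctrl. The groups were far apart for their spread, with a difference of 0.56 (limma adjusted p = 0.103). Gsg1l, an auxiliary subunit of AMPA receptors, had 8.46, 8.35 and 8.27 in DZP and 7.56, 7.97 and 7.76 in Ctrl, a difference of 0.60 (limma adjusted p = 0.134). Kctd1 (0.43), Sec14l5 (0.37), Ivns1abp (0.49), Podxl (0.47), a sialomucin of endothelium, and Abcc9 (0.32), the sulfonylurea receptor of pericytes and smooth muscle, were the others named by the size of their moderated t. Kctd1 and Dach1 were at 0.32 and 0.46 with the striatal mean as a covariate, Gsg1l at 0.49.

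The genes of the receptor that diazepam acts on were evenly divided. Of 19 GABA-A receptor subunit genes 16 were measured, 8 higher and 8 lower in DZP (median -0.06), and 10 exceeded the negative controls. Entirely below lay 4 (25%, against 12.8% of expressed coding genes). Entirely above lay 2 (12.5%, against 2.59% of expressed coding genes and 14% of coding genes not above the negative controls). The differences of the 16 ran from -0.41 to 0.38. Gabra5, the alpha5 subunit of extrasynaptic receptors, had 13.62, 13.51 and 13.54 in DZP, against 13.76, 13.69 and 14.00 in Ctrl, a difference of -0.26 (limma adjusted p = 0.462), or -0.17 without Ctrl array 3. Gabrb1 had 12.58, 12.63 and 12.65 in DZP and 12.91, 12.87 and 12.79 in Ctrl, a difference of -0.24 (limma adjusted p = 0.417). Gabra2 (-0.20) and Gabra3 (-0.22), subunits that diazepam binds, lay below Ctrl on every array by smaller amounts, whereas Gabrd, the delta subunit that replaces gamma in receptors diazepam does not act on, had 7.49, 7.43 and 6.96 in DZP and 6.72, 7.07 and 6.97 in Ctrl (0.38, overlapping). Gabrp and Gabra6, the 2 above, had signals under the negative controls. Gabrg1 had 10.82, 10.67 and 10.63 in DZP and 11.45, 11.25 and 10.64 in Ctrl, so that its difference of -0.41 was -0.64 without Ctrl array 3 (limma adjusted p = 0.0479).

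Other lists near the drug's action were described in the same way. The 16 genes of the inhibitory synapse and of GABA handling had a median of -0.10, in which Gabbr2, a subunit of the metabotropic GABA-B receptor, had 14.35, 14.39 and 14.54 in DZP and 14.84, 14.58 and 14.82 in Ctrl (difference -0.32, limma adjusted p = 0.31). Of these 16, 10 were lower, where 67.3% of expressed coding genes were lower too. Entirely below lay 2 (12.5%, near the 12.8% of expressed coding genes). Their list had a median of -0.18 without Ctrl array 3, with 13 lower and 7 entirely below (43.8%, against 26.1% of expressed coding genes). The 21 glutamate receptor genes had a median of -0.07. Grm2, a presynaptic metabotropic receptor, had 8.81, 8.42 and 9.14 in DZP and 9.47, 9.28 and 9.30 in Ctrl, a difference of -0.56. The 9 genes of the translocator protein and of neurosteroid synthesis, a second binding site for some benzodiazepines, had a median of -0.01, and Cyp7b1, which hydroxylates neurosteroids, was the lowest at -0.41. The 7 measured housekeeping genes had a median of 0.02 (-0.02 without Ctrl array 3). Yet 3 of them (42.9%, against 12.8% of expressed coding genes) lay entirely below Ctrl and 0 above. These were Hprt at -0.31, Tbp at -0.09 and Ywhaz at -0.08.

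**Figure D5:**
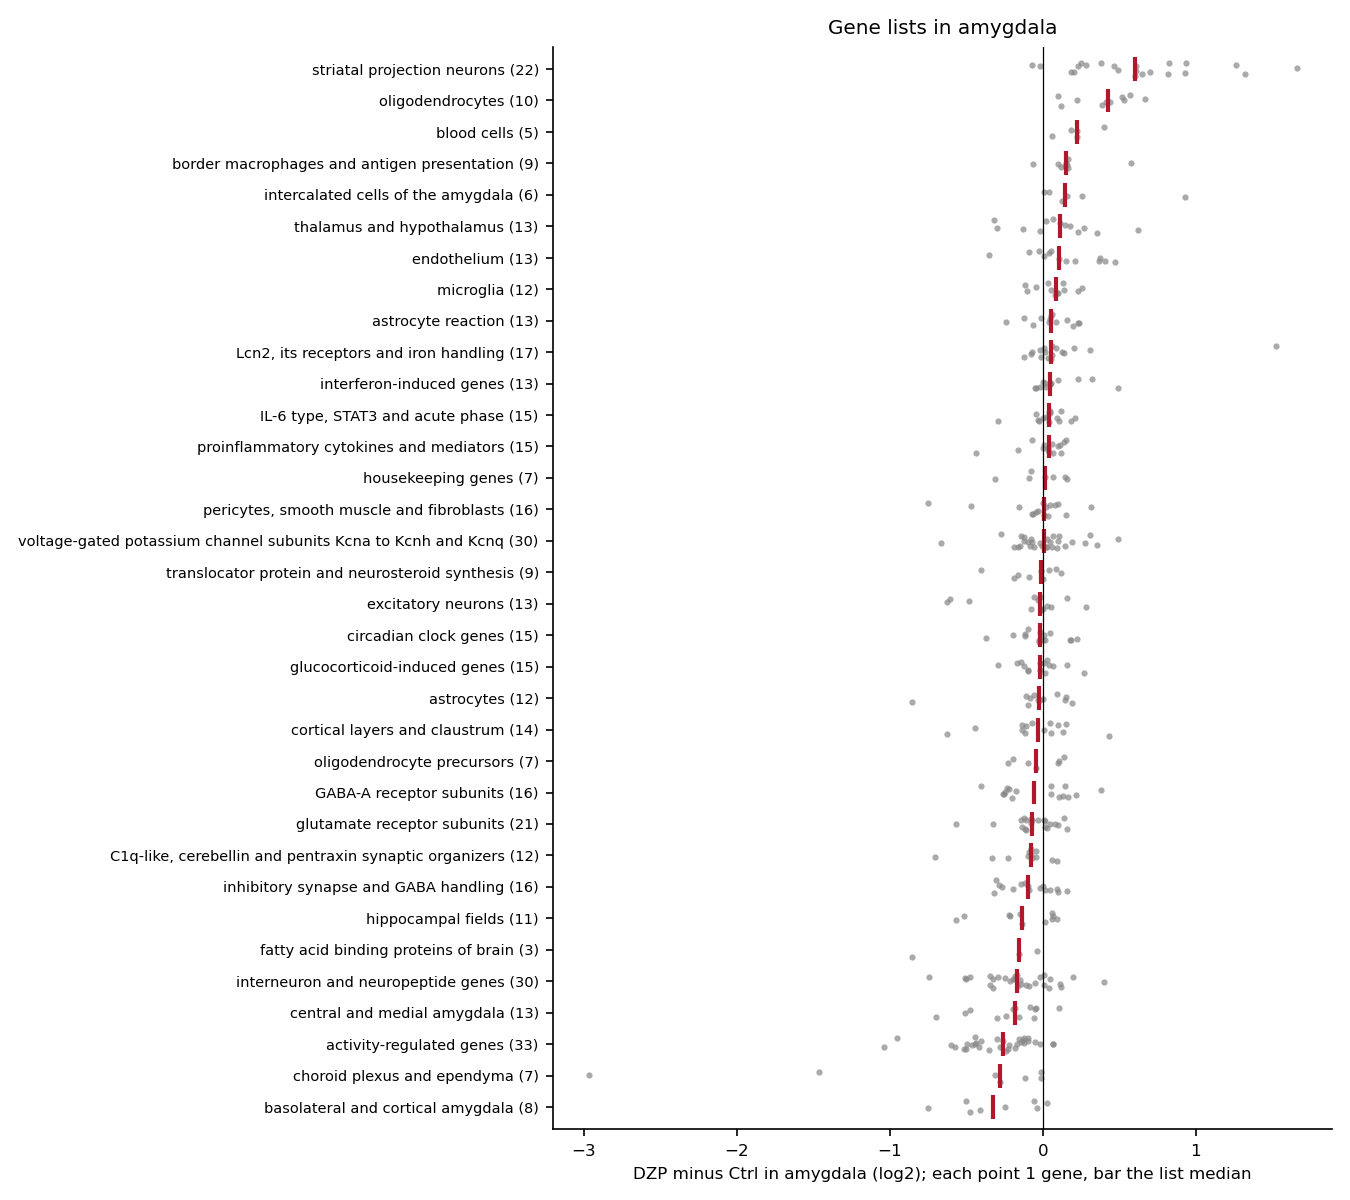
Difference between DZP and Ctrl amygdala (x axis, log2) for every measured gene of each list (grey points), with the list's median as a red bar and the number of genes in brackets. Striatal projection neuron (0.60) and oligodendrocyte (0.43) lists lie highest, basolateral and cortical amygdala (-0.33), choroid plexus (-0.28) and activity-regulated genes (-0.26) lowest, and the GABA-A receptor list is at -0.06.

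Lcn2, a secreted protein that carries iron-binding siderophores, had the second largest higher difference of the named genes, with 6.61, 7.69 and 8.31 in DZP, against 5.94, 6.27 and 5.83 in Ctrl. The lowest DZP array was above the highest Ctrl array, but the DZP arrays spread widely (SD 0.86, against 0.23 in Ctrl, n = 3 each), and every Ctrl array lay below the mean of its negative controls (6.75 to 6.80), so that Lcn2 counts as above them through DZP alone. The difference was 1.52 (SE 0.32, limma adjusted p = 0.249), beside 1.39 in cortex and 1.86 in hippocampus. On the exon-level probe sets of the same gene, 19 of 20 were higher in DZP, with a median of 2.03. The partners of Lcn2 were near 0: its list of receptors and iron-handling genes had a median of 0.05, with Trf, transferrin, at 0.31 (0.19 without Ctrl array 3) and Steap3, an endosomal iron reductase, at 0.20. The lists of proinflammatory cytokines (0.04), of IL-6 type and acute phase genes (0.04), of interferon-induced genes (0.04) and of astrocyte reaction (0.05) had medians near 0 as well. Only 3 of 15, 7 of 15, 3 of 13 and 2 of 13 of their members exceeded the negative controls, so these medians rest in large part on signals near background. Ifitm3 was at 0.49 and Ptgs2 at -0.44, both with overlap. Of the astrocyte reaction genes 4 (30.8%, against 14% of coding genes not above the negative controls) lay entirely above Ctrl and 0 below. The first 2 medians were 0.08 and 0.01 without Ctrl array 3.

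Lyz2, the lysozyme of macrophages and granulocytes, had 7.36, 7.21 and 7.84 in DZP, against 6.81, 7.01 and 6.87 in Ctrl, a difference of 0.57 without overlap (limma adjusted p = 0.421). The other 8 genes of border macrophages and antigen presentation had signals below the negative controls. Among 13 endothelial genes 10 were higher (median 0.10, or 0.17 without Ctrl array 3), against 32.7% of expressed coding genes. Of the 13, 4 (30.8%, against 2.59% of expressed coding genes) lay entirely above and 1 (7.69%, against 12.8%) entirely below. The 4 were Podxl, Vwf (0.41), the clotting factor stored in endothelium, Flt1 (0.21), a receptor for VEGF, and Selp (0.37). Podxl had 8.52, 8.81 and 9.03 in DZP and 8.24, 8.48 and 8.23 in Ctrl. Cldn5, Cdh5 and Abcb1a, which mark the same cells, were at -0.02, 0.05 and 0.01, or at -0.08, 0.02 and -0.08 without Ctrl array 3. Fabp7, the brain fatty acid-binding protein of astrocytes, had 10.77, 10.45 and 10.67 in DZP, against 11.32, 11.78 and 11.36 in Ctrl. Its difference of -0.85 (SE 0.19, limma adjusted p = 0.275) stood beside -0.52 in cortex and -0.21 in hippocampus. It was the largest among 12 astrocyte markers, whose median was -0.02, or -0.08 without Ctrl array 3.

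All noncoding clusters that were higher by the criteria belonged to a single group of microRNA genes. The Mir297, Mir466, Mir467 and Mir669 families lie mostly in an intron of the Polycomb gene Sfmbt2 and are made of near-identical copies, so that several clusters hold the same probes and values. Of 88 clusters (66 with distinct values), 82 had the higher mean in DZP (69.8% of noncoding genes did), 24 (27.3%, against 11% of noncoding genes) lay entirely above Ctrl and 0 below, 30 were higher at an unadjusted p below 0.05 (9.01% of noncoding genes), and 16 met the criteria of the study's methods (0.528%), which hold 6 distinct sets of values. With repeated clusters counted once, the 36 single-symbol clusters higher by the criteria become 26. The median difference was 0.32, and their mean on each array was 10.15, 10.10 and 10.03 in DZP, against 9.64, 9.69 and 9.95 in Ctrl. One of the clusters of Mir466d had 12.71, 12.58 and 12.13 in DZP and 11.07, 11.48 and 11.69 in Ctrl, a difference of 1.06 (SE 0.31, limma adjusted p = 0.348), while the other, which is the brighter over all arrays, was at 0.22 with overlap. Mir466b-8 and Mir466e shared the values 8.15, 8.31 and 8.21 in DZP and 7.56, 7.39 and 7.55 in Ctrl, a difference of 0.72 (limma adjusted p = 0.318). Mir669o had 13.21, 12.90 and 13.05 in DZP and 12.34, 12.00 and 12.71 in Ctrl, a difference of 0.71.

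The host transcript did not share the direction. Sfmbt2 had 6.44, 6.64 and 6.81 in DZP, against 6.73, 6.90 and 6.70 in Ctrl, a difference of -0.15 (limma adjusted p = 0.652). The 68 clusters whose gene lies within Sfmbt2 in RefSeq and whose identifier names the same chromosome had a median of 0.32, and the other 20 one of 0.31. Without Ctrl array 3, which was the highest of the Ctrl arrays in these families, the median was 0.44. Then 58 clusters (65.9%, against 18.2% of all single-symbol clusters without that array) lay entirely above. The median of the families was 0.01 in cortex and 0.31 in hippocampus. Total RNA was labelled, so the probes read precursor transcripts and repeats of like sequence as well as mature microRNAs.

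Mature sequences are printed for the 8 of 77 genes that the RefSeq table (GRCm38.p6) holds, to show what these families share; none lies on the chromosome of Sfmbt2. Capitals mark the seed, bases 2 to 8, and all 8 seeds differ. The sequences run largely in alternating purines and pyrimidines, rich in GU repeats, as in miR-669n with 90% G and U, or in CA repeats, as in miR-467f with 14.3%.
mmu-miR-669n: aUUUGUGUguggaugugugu
mmu-miR-467h: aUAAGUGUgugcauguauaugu
mmu-miR-466j: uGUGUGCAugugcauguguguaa
mmu-miR-466q: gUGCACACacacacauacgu
mmu-miR-466k: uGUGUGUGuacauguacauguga
mmu-miR-466i-3p: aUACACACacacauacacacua
mmu-miR-467g: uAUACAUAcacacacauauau
mmu-miR-467f: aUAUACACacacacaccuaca
Mir466q, with 11.64, 11.55 and 11.54 in DZP, against 11.34, 11.13 and 11.32 in Ctrl, was the only one of the 8 whose arrays did not overlap (0.32). Mir669n differed by 0.54, Mir467h by 0.43, Mir466j by 0.42, Mir466k by 0.30, Mir466i by 0.17 and Mir467g by 0.10, and in each of these Ctrl array 3 reached into the DZP range. Mir467f, by its cluster on the chromosome of the printed sequence, differed by -0.10 with overlap. Mir467h was at 0.66, Mir466k at 0.52, Mir466i at 0.32 and Mir467g at 0.17 without Ctrl array 3.

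Families that the brain scarcely expresses followed the low-signal part of the array. The 1229 olfactory receptor clusters had a median of 0.10 as deposited and 0.03 after quantile or cyclic loess normalization, with 142 entirely above (11.6%) and 16 below, and 14 of them exceeded the negative controls. Of the 8980 coding genes not above the negative controls 14% lay above and 1.87% below, so the share of olfactory receptors above was no larger than this background. Olfr871 had 4.94, 4.76 and 4.68 in DZP, against 4.21, 4.09 and 4.04 in Ctrl, a difference of 0.68 (limma adjusted p = 0.078), and Olfr980 one of 0.61 (limma adjusted p = 0.078). The smallest adjusted p was shared by these, Nr4a3 and Gm24031, a predicted gene with 6.41, 6.12 and 6.06 in DZP and 5.55, 5.38 and 5.54 in Ctrl (difference 0.71). All but Nr4a3 had signals below the negative controls. The 494 vomeronasal receptor clusters had a median of 0.08, the 344 immunoglobulin and T cell receptor segments 0.11 and the 587 other microRNA clusters 0.07. Small nucleolar RNA genes (-0.02) and cytosolic ribosomal protein genes (-0.01) were centred near 0. Without Ctrl array 3 these 2 medians were -0.10 and -0.03, and that of the vomeronasal receptors was 0.14.

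The amygdala differences were set against those of the other regions by an interaction contrast. Of all clusters, 0 (0%) passed for a different effect in cortex, and 4877 (7.39%) had an unadjusted p below 0.05 in limma. For a different effect in hippocampus 8 passed (0.0121%), of which 7 carry no symbol and 4 share the same values. The single one with a symbol was Gm25834, a predicted gene, at 0.56 in amygdala and -0.53 in hippocampus (difference of the effects 1.08, limma adjusted p = 0.0466). For Nr4a3 the effect was -0.42 in cortex and -0.33 in hippocampus, and neither differed from amygdala (limma adjusted p = 0.577 and 0.414). Drd1, at -0.01 in cortex and 0.16 in hippocampus, did not pass either (limma adjusted p = 0.505 and 0.414), nor did C1ql3, at 0.10 and 0.08 (limma adjusted p = 0.494 and 0.375). The activity-regulated list had a median of -0.11 in cortex and -0.22 in hippocampus, and the striatal list one of -0.01 in cortex and -0.002 in hippocampus.

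Leaving out 1 array changed which genes limma called. Without DZP array 3, the DZP array with the lowest striatal mean, 19 clusters were called, 16 higher and 3 lower. The 14 with a symbol include the striatal genes Scn4b (2.16), Rgs9 (1.79), Pde10a (1.48), Gpr6 (1.04), Rarb (0.86) and Lrrc10b (1.01), and on the lower side Nr4a3 (-1.19), Fam149a (-0.51) and Tom1 (-0.49). Without Ctrl array 3, 15 were called, 3 higher and 12 lower. Those with a symbol include Ache (-1.10), the acetylcholinesterase, the imprinted gene Peg10 (-1.17), Ucn3 (-0.82), Gabrg1 (-0.64) and Scg2 (-0.64), a secretogranin of dense-core vesicles. Ache had 10.57, 10.52 and 10.63 in DZP, against 11.47, 11.88 and 10.43 in Ctrl, so that Ctrl array 3 alone lay at the level of DZP. Peg10 had 9.53, 9.46 and 9.73 in DZP and 11.07, 10.42 and 9.80 in Ctrl. Leaving out any of the other 4 arrays gave 0 calls.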

How the data were processed

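The authors hybridised cDNA made from 100 ng of total RNA to Affymetrix Mouse Transcriptome Arrays 1.0, and the deposited gene-level values are log2 signal intensities, produced per the labels with Affymetrix Expression Console 1.4.1. The sources used here name neither the method by which signals were summarised and normalized nor the batches in which arrays were run. In all, the deposited table held 72688 probe sets, of which 6732 controls were left out, and 30646 clusters had a single symbol after 330 symbols were updated. A gene with several clusters was represented by the one with the highest mean over 18 arrays. Coding genes above the negative controls are those whose mean in DZP or Ctrl exceeded the mean of the negative control probes. Values were used as deposited and fitted with limma 3.58.1 in R 4.3.3 (lmFit, eBayes; 18 arrays, 6 groups, no block), with Benjamini-Hochberg adjustment over 65956 clusters and a threshold of 0.05. The fit was tested on simulated data. The deposited exon-level log2 values gave an alternative for named genes.

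Samples were grouped by labelled agent and region, 3 arrays a group, whose number limits the precision. The members and gene lists were chosen with earlier results of these data known. Genes were named if they met the study's criteria as coding genes, ranked among the 10 largest moderated t in either direction, or ranked among the 4 largest of a list; others named were chosen after their values were seen. Alternatives were median centring, quantile and cyclic loess normalization, array weights, level filters, repeated clusters counted once, a replicate block, a striatal covariate and leaving out each array. A fit of the 6 amygdala arrays alone was another. Cyclic loess, and counts without Ctrl array 3, were added after seeing the data. The supplementary tables of the paper were not used.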

Additional observations from a re-analysis of the deposited data

Results flagged for a closer look

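Gm25834, a predicted gene, was picked out because limma's interaction contrast called the difference of its effects between amygdala (0.56) and hippocampus (-0.53), which was 1.08 (adjusted p = 0.0466).

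Another 4 named genes were picked out because every array moved one way in amygdala and the opposite way in another region; limma's interaction contrast called none of them. Gpr6 was higher on all DZP arrays of amygdala and lower on all DZP arrays of hippocampus, where it had 6.71, 6.56 and 6.54 in DZP and 6.80, 7.06 and 6.87 in Ctrl (difference of the effects 1.13, limma adjusted p = 0.226). Kcng1 was lower in amygdala and higher in hippocampus, where it had 8.37, 8.28 and 8.18 in DZP and 7.70, 7.84 and 8.13 in Ctrl (difference of the effects -1.05, limma adjusted p = 0.219). Syn1 had 14.63, 14.63 and 14.55 in DZP hippocampus and 14.40, 14.38 and 14.49 in Ctrl hippocampus (difference of the effects -0.50, limma adjusted p = 0.157). Gabra5 was lower in amygdala and higher in cortex, by 0.29 (difference of the effects -0.55, limma adjusted p = 0.494). Olfr980, with signals below the negative controls, met the same rule, higher in amygdala and lower in hippocampus (difference of the effects 0.83, limma adjusted p = 0.0757).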

How the results depend on the processing

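Of the named genes' differences, Drd2 (-0.020) and Ttr (0.076) changed sign with the striatal mean as a covariate. Of the list medians, intercalated cells (-0.051) and choroid plexus (0.075) did so with that covariate. Without 1 array the median of intercalated cells was -0.049 to 0.34 and that of choroid plexus -0.45 to 0.044, both turned by Ctrl array 3, and that of hippocampal fields -0.20 to 0.026, turned by Ctrl array 1. The covariate left the activity-regulated median at -0.12 and the striatal one at 0.013. The replicate numbers did not pair the arrays (r of deviations of same-numbered arrays -0.02, -0.05 and -0.10), and a replicate block gave 4 calls in place of 0: Scn4b and Drd2 (limma adjusted p = 0.00599 for both), Nr4a3 (0.0334) and Rgs9 (0.0452). Leaving out 1 array gave 0 to 19 calls. The 8 calls between amygdala and hippocampus became 0 with median centring, array weights, the replicate block and repeated clusters counted once, and 0 to 9 without 1 array. By the study's criteria 36 clusters were higher and 13 lower. Centring gave 11 and 20, limma's unadjusted p 57 and 27, and the covariate 58 higher. Leaving out 1 array gave 16 to 64 higher and 12 to 71 lower. Clusters with DZP above Ctrl on every array, 2560 as deposited, were 1535 after centring, 1602 after cyclic loess, 718 at or above the median level and 436 above the negative controls. With 1 array fewer, which makes separation easier, they were 3661 to 5730, and those below were 2661 to 3944. The striatal mean's difference of 0.61 was 0.39 to 0.87 without 1 array. A random block over agent and replicate number across regions had a correlation of 0.0069 and left the calls at 0 in amygdala, 0 against cortex and 8 against hippocampus.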
